A study of Homo sapiens with 18 samples.

Results

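Replicative senescence was described at the mRNA level in IMR90, primary human fetal lung fibroblasts, from 6 of the 18 libraries of the series. These were the mRNA-seq libraries of 3 young samples, which were low-passage proliferating cells, and 3 old samples, which were high-passage cells grown until they ceased to divide. The labels name no transgene and no treatment for either group. Per the study's methods the cells were grown as independent replicas, lysed with cycloheximide (an inhibitor of translation elongation) so that ribosome footprints and mRNA came from the same lysates, and poly(A) RNA was sequenced, whereas the sample labels name total RNA. A further group of 3 mRNA-seq libraries, ICM, came from low-passage cells given inflachromene, a compound that binds HMGB1 and HMGB2, and entered the fit, where it shared the estimate of spread and took part in the filter on low counts. The old cells differed from the young cells in passage as well as in senescence, so that time in culture and arrest cannot be told apart.

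Replicative senescence is the lasting arrest that follows telomere shortening over many divisions. The damage signal from short telomeres acts through p53 and its target CDKN1A (p21), and later through CDKN2A (p16), to keep the retinoblastoma proteins active and E2F genes silent. Senescent fibroblasts enlarge, gain lysosomal mass, remodel chromatin with loss of lamin B1 and HMGB proteins, and secrete proteases, growth factors and cytokines known together as the senescence-associated secretory phenotype (SASP).

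Between 7902427 and 14144455 reads per library lay in the 5′ UTR, CDS and 3′ UTR of coding genes, and these were summed per gene. Levels are given in CPM, which are counts scaled to a common library size with TMM factors, and changes as log2 of old over young with the standard error (SE) of the fit. Genes are called where the quasi-likelihood test of edgeR gave an adjusted p under 0.05, and called strongly changed at an adjusted p under 0.01 with an absolute log2 change over 0.6. The latter limits are those that the study's methods give for its separate RNA-seq, while its results text gives an adjusted p under 0.05. For the mRNA libraries made beside the footprints the methods name anota2seq with a different threshold, which was not used here. Pearson's r of log2 CPM across genes was between 0.992 and 0.994 within groups and between 0.930 and 0.933 across groups. The old libraries held 26.8% to 28.9% of their coding reads in 3′ UTRs and the young libraries 24.7% to 25.1%. The 10 most abundant genes took 6.78% to 7.29% of coding reads in old and 8.07% to 8.71% in young. The part of these shares in the results was not tested beyond a count of CDS reads alone, given with the alternatives. CPM values are relative to each library's total, so that a change in the amount of RNA per cell would not be seen.

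Most of the genes that could be tested differed between old and young cells. Of 13173 genes, 8709 were called (66.1%), with 4271 higher in old cells (32.4%) and 4438 lower (33.7%). Strong changes were called for 4075 genes (30.9%), of which 1963 rose (14.9%) and 2112 fell (16.0%). The median change of all genes tested was -0.015 and the median absolute change 0.40, with a 90th percentile of 1.32. The replicates were close, with a biological coefficient of variation of 0.0575, so that small differences passed the test. All 3 old libraries lay outside the range of the 3 young libraries for 8839 genes (67.1%), and any list below is read against these shares.

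**Figure D1:**
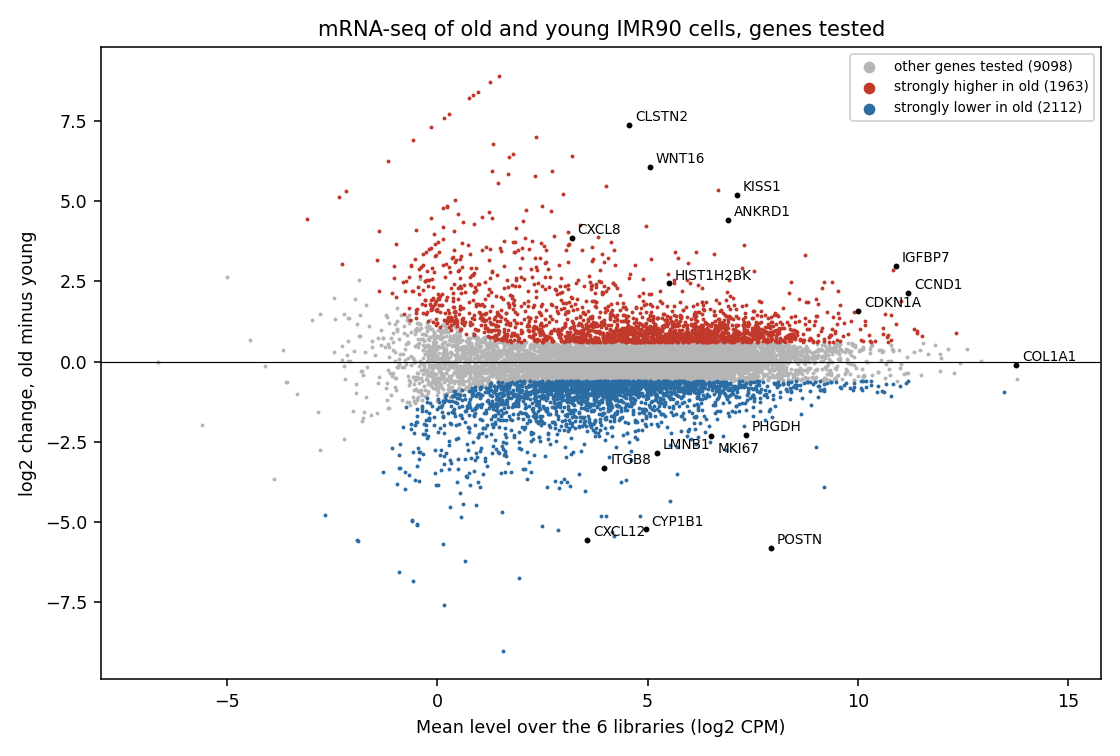
Mean level over the 6 libraries (log2 CPM, horizontal) against the log2 change from young to old (vertical) for the 13173 genes tested, with strongly changed genes in red (1963 higher in old) and blue (2112 lower) and 17 genes marked. CLSTN2 and WNT16 stood far above 0, POSTN and CXCL12 far below, and COL1A1, the rightmost marked gene, lay near 0.

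Markers of the labelled cell type were abundant. All 10 fibroblast markers passed the filter, and their summed level was 32230 to 36515 CPM in young and 30493 to 35378 CPM in old cells. COL1A1, the alpha 1 chain of type I collagen, stood at 14509.5 ± 1099 CPM in young and 13441 ± 1535 CPM in old (mean ± SD over 3 libraries, as throughout) and was not called. VIM (vimentin) and PDGFRA were not called either, with log2 changes of 0.11 and 0.03, and THY1 rose by 0.45. Of the 10 markers 3 were called higher and 3 lower (30% each), near the shares of all genes tested. The falls were COL3A1 (log2 change -0.94), DCN (-0.61, from 1413 ± 32.4 to 923 ± 88.3 CPM) and PDGFRB. Epithelial markers were close to absent, as none of the 8 passed the filter, and their sum did not exceed 2.73 CPM in any of the 6 libraries. Of 8 endothelial markers 2 passed, and their sum of 55.5 to 63.9 CPM in young and 95.1 to 107 CPM in old was nearly all TEK, a receptor of angiopoietins, while CDH5 had no read in any of the 6 libraries. Of 8 blood markers only HBB passed (sum 3.05 to 3.15 CPM in young and 6.12 to 8.82 CPM in old), and CD3E had no read. The 5 mesothelial markers summed to 1.22 to 1.72 CPM in young and 1.71 to 2.32 CPM in old, with WT1 at 0.

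The 12 largest rises among called genes of at least 5 CPM were of genes with low levels in young cells. CLSTN2, a calsyntenin of the neuronal membrane, was measured at 0.124, 0.262 and 0.381 CPM in the young and 52.0, 39.8 and 48.9 CPM in the old libraries. It rose 168-fold (log2 change 7.39, SE 0.22, edgeR adjusted p 1.70e-17). WNT16, a secreted WNT ligand, stood at 0.745, 0.959 and 1.14 CPM in the young and 64.1, 68.1 and 63.9 CPM in the old libraries, a log2 change of 6.07 (SE 0.14). Separation of the groups was part of how these genes and the falls below were chosen, and the plot by library shows its size. KISS1, which encodes the kisspeptin precursor, was detected in young cells at 6.95, 7.41 and 7.82 CPM and reached 305, 260.3 and 251 CPM in old cells (log2 change 5.19, SE 0.10). TMEM178B, a transmembrane protein, rose from 4.85 ± 0.656 to 199 ± 17.5 CPM, and L1CAM, a neural adhesion molecule, from 0.699 ± 0.226 to 31.6 ± 2.22 CPM. The other members were TENM1 (a teneurin, log2 change 7.01), ZPLD1 (6.43), MXRA5 (5.94), PDGFB (5.80), ITGA8 (5.23), KCTD4 (4.85) and MFAP5 (4.71).

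The 12 largest falls included genes of the matrix, of signalling and of enzymes. POSTN, the matricellular protein periostin, was measured at 452, 478 and 504 CPM in the young and 8.60, 8.60 and 8.34 CPM in the old libraries. This was a 56.0-fold fall, with nearly equal values within each group (log2 change -5.81, SE 0.082, edgeR adjusted p 5.21e-23). CXCL12, a chemokine that fibroblasts supply to blood precursors, stood at 24.2, 23.9 and 21.7 CPM in the young and 0.538, 0.667 and 0.185 CPM in the old libraries (log2 change -5.58, SE 0.22). CYP1B1, a cytochrome P450 enzyme, fell from 60.4 ± 4.16 to 1.6004 ± 0.260 CPM and PTGIS, prostacyclin synthase, from 88.5 ± 5.81 to 4.25 ± 0.272 CPM. HEPH, a ferroxidase, fell from 36.1 ± 0.914 to 0.838 ± 0.396 CPM. Lower levels were also measured for VANGL2, a planar polarity protein (log2 change -5.26), CPXM1 (-5.13), SLC7A14 (-4.83), AEBP1 (-4.82), SERPINF1, the anti-angiogenic factor PEDF (-4.82), and SOX11, a transcription factor (-4.05).

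**Figure D2:**
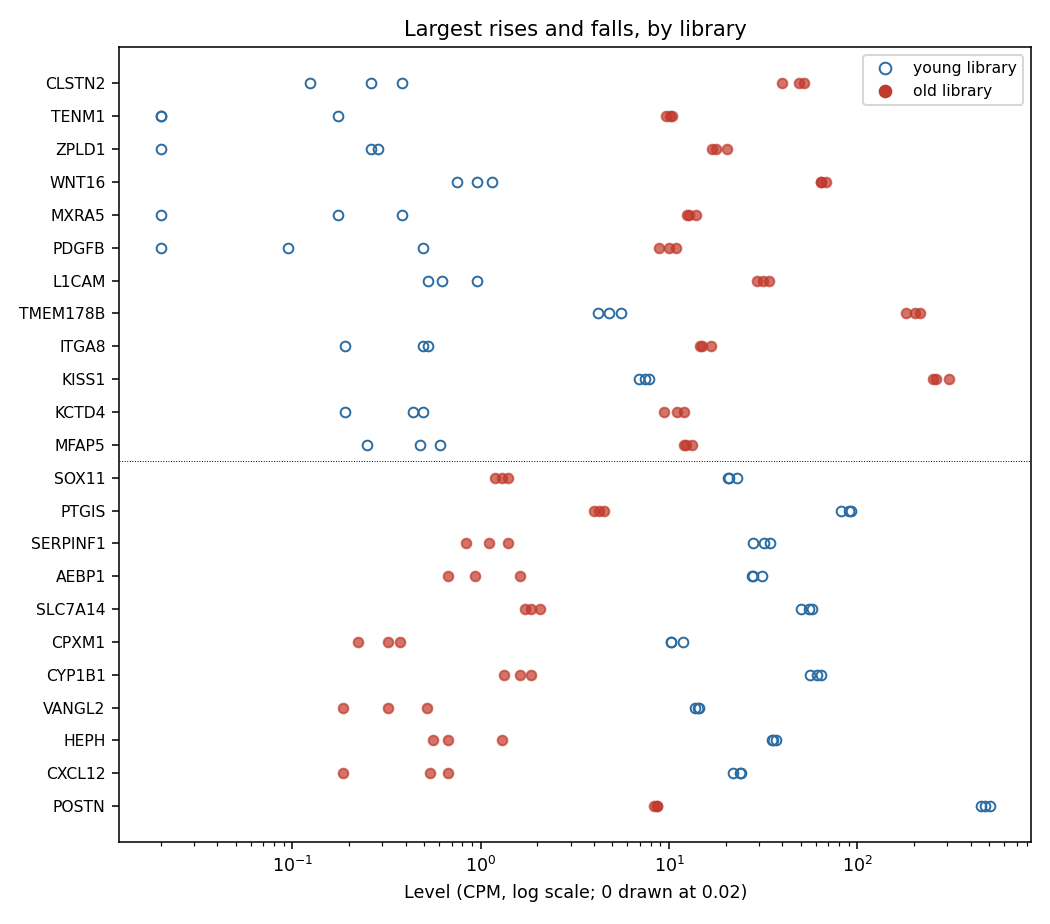
Level (CPM, log scale) of the 12 genes that rose most and of 11 of those that fell most, in each of the 3 young (open blue) and 3 old (filled red) libraries, with values of 0 drawn at 0.02. Genes were chosen among those whose groups do not overlap, and POSTN reaches 8.60 CPM at most in old libraries and 452 CPM at least in young.

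A small number of genes had no read in any library of a group, and examples are given with the ratio that a floor of 3 reads over the group allows. FOXE1, a forkhead transcription factor, had 182 reads over the old libraries and 0 over the young, which makes it at least 54.2-fold higher in old cells at that floor. C5orf46 (161 reads in old, at least 48.0-fold), CSF2RB (129 reads, at least 38.4-fold), EHF (121 reads, at least 36.1-fold), the cystatin CST1 (113 reads, at least 33.7-fold) and the chemokine receptor CXCR4 (61 reads, at least 18.2-fold) were of the same kind. In the other direction, FMO2, a flavin monooxygenase, had 177 reads over the young libraries and 0 in old, at least 66.0-fold lower. The carboxylesterase CES1 (39 reads in young, at least 14.5-fold lower) was likewise read only in young cells. These genes were picked by their reads after the values were seen.

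Gene lists for 38 pathways and complexes were then counted. The lists with nearly all members lower were those of mitosis, DNA replication, DNA repair, splicing, ribosomal proteins and ATF4 targets. The largest shares of members called higher were in the lists of histones, lysosome, glycolysis and cholesterol synthesis. Of these 4 lists only that of histones had no member called lower.

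**Figure D3:**
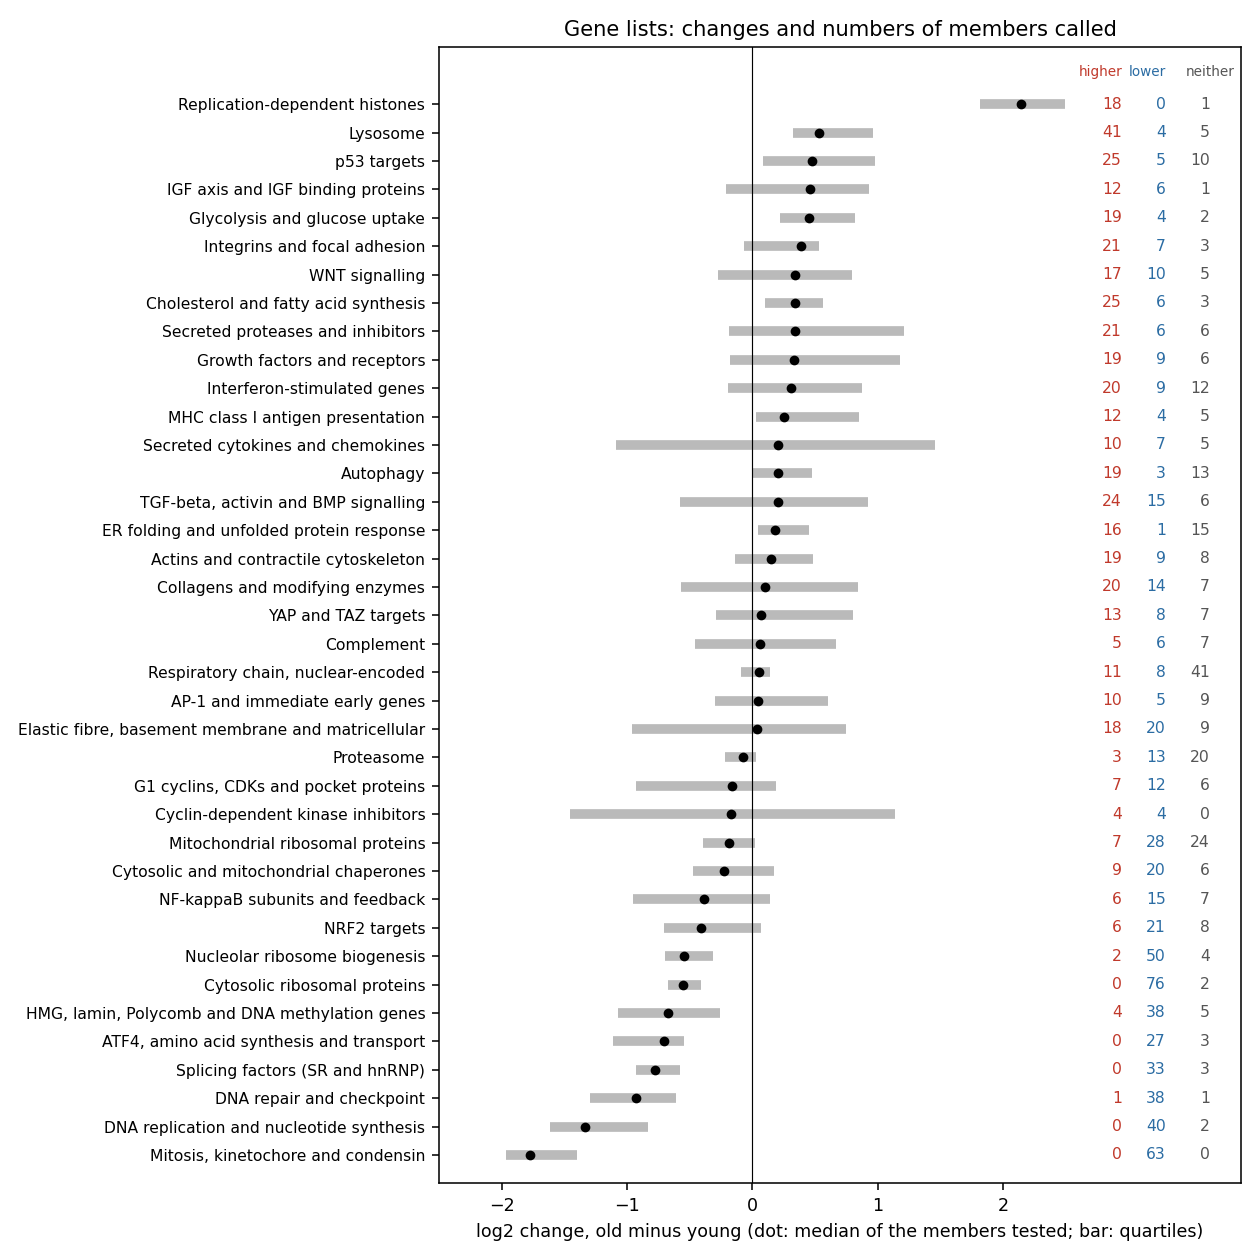
Median (dot) and quartiles (bar) of the log2 change from young to old over the members tested of 38 gene lists, with the numbers of members called higher (red), lower (blue) and neither (grey). Medians run from -1.78 for mitosis to 2.14 for replication-dependent histones, against -0.015 for all genes tested.

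The list of inhibitors of cyclin-dependent kinases, which also holds the phosphatase CDKN3, divided evenly. Of 8 tested, 4 rose and 4 fell, with a median of -0.17 that turned to 0.60 with a mean of at least 50 counts. CDKN1A (p21) was measured at 521, 519 and 502 CPM in the young and 1569, 1481 and 1605 CPM in the old libraries. It rose 3.02-fold (log2 change 1.59, SE 0.063, edgeR adjusted p 2.09e-15). CDKN2A, whose locus encodes p16 and ARF that gene-level reads do not separate, stood at 43.9, 51.8 and 52.999 CPM in the young and 74.7, 68.1 and 84.6 CPM in the old libraries (log2 change 0.60, SE 0.086). The rise of CDKN2A was smaller than that of its neighbour CDKN2B (p15), which went from 25.4 ± 2.14 to 67.0 ± 2.66 CPM (log2 change 1.40, SE 0.078), although the difference between these changes was not tested. CDKN2D (p19) rose by 1.05. The members that fell were CDKN1B (p27, log2 change -0.94), CDKN1C (p57, -1.31), CDKN2C (p18, -1.94) and CDKN3, a phosphatase of cell cycle kinases (-1.89).

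Among 25 G1 cyclins, kinases and pocket proteins 7 rose and 12 fell (median -0.16). CCND1 (cyclin D1), which pairs with CDK4 and CDK6 to phosphorylate RB1, was at 853, 860.5 and 884 CPM in the young and 3780.2, 3539.9 and 4217 CPM in the old libraries, a 4.44-fold rise (log2 change 2.15, SE 0.069). CCND2 (cyclin D2) went from 16.9 ± 0.185 to 174 ± 14.6 CPM (log2 change 3.37, SE 0.082) and CDK6 from 136 ± 15.9 to 386 ± 14.7 CPM. CCND3, a further D-type cyclin, rose by 1.24 (named after its value was seen), while CDK4 fell by 1.07 on the log2 scale. FOXM1 and MYBL2, transcription factors of the G2 and S phase programmes, fell from 108 ± 13.0 to 28.7 ± 1.11 CPM and from 71.2 ± 7.21 to 23.6 ± 2.89 CPM.

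The mitotic programme fell as a whole. Every one of the 63 genes of mitosis, kinetochore and condensin was called lower, 62 of them strongly, with changes from -2.67 to -0.54 and a median of -1.78, where 33.7% of all genes tested were called lower. CENPF, a kinetochore protein, was measured at 80.2, 88.6 and 101 CPM in the young and 11.5, 14.6 and 15.9 CPM in the old libraries (log2 change -2.67, SE 0.10, edgeR adjusted p 9.01e-16). KIF20A, a kinesin of cytokinesis, stood at 82.4, 79.2 and 76.4 CPM in the young and 11.2, 13.2 and 14.4 CPM in the old libraries, and CDC20, the activator of the anaphase promoting complex, at 105, 104 and 95.5 CPM in the young and 18.3, 18.5 and 23.8 CPM in the old libraries. No old library came near the young range for these genes, yet reads remained in every old library. TOP2A, topoisomerase of mitotic chromosomes, fell 4.05-fold and ANLN (anillin) 3.50-fold. MKI67, the proliferation marker Ki-67, went from 153 ± 2.21 to 30.9 ± 2.10 CPM. In bulk samples such as these, fewer dividing cells and less mitotic mRNA per cell cannot be told apart.

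Promoters of these genes carry short elements through which cell cycle genes are known to be repressed in arrested cells. Windows of 30 bases are shown for the 6 mitotic genes that fell most among those with a cell cycle homology region (CHR, letters TTTGAA, searched on both strands) in the RefSeq promoter, 250 bases before to 50 bases after the gene start in GRCh38.p14. Capitals mark the element, and sequences run 5′ to 3′ on the strand of the gene.
CENPF (chr1:214603215-214603244, + strand): ccggtggcggctgcgggcagTTTGAAttag
CDC20 (chr1:43358904-43358933, + strand): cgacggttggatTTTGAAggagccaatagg
MKI67 (chr10:128126435-128126464, - strand): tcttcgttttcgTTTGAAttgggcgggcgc
ASPM (chr1:197146765-197146794, - strand): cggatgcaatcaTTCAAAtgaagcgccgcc
BUB1B (chr15:40161034-40161063, + strand): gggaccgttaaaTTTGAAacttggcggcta
DLGAP5 (chr14:55191565-55191594, - strand): cggtgcggcaagTTTGAAtttcgtggaggc
In ASPM the element reads on the opposite strand, as TTCAAA. The CHR was found in 38 of the 55 mitotic genes with a promoter in the table (69.1%), against 10.5% of the genes tested, 14.8% of the strongly lower genes and 12.4% of all promoters of protein-coding genes. The CCAAT box (letters CCAAT) was found in 72.7% of the mitotic promoters and in 34.7% of all promoters of protein-coding genes. These matches are a description of the letters and not of bound factors.

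DNA replication genes fell next in size. Of 42 genes 40 fell, none rose, and RFC5 and RPA2 were not called (log2 changes -0.08 and 0.17, both named after their values were seen). The median change was -1.34. ORC1, a subunit of the origin recognition complex, was at 11.4, 10.9 and 7.72 CPM in the young and 2.58, 2.37 and 2.596 CPM in the old libraries (log2 change -1.99, SE 0.18). MCM7 of the replicative helicase stood at 132, 125 and 134 CPM in the young and 37.6, 37.6 and 38.4 CPM in the old libraries. Both genes had every old library below the young range. MCM10, a helicase partner, fell from 16.5 ± 2.43 to 4.53 ± 0.520 CPM. RRM2, a subunit of ribonucleotide reductase, fell from 167 ± 13.7 to 81.4 ± 6.44 CPM. POLD2, a subunit of DNA polymerase delta, fell by 0.24 on the log2 scale.

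An E2F element (letters TTTCCCGC, both strands) was searched in the same promoter windows, and 30 bases are shown for the 6 replication genes that fell most among those that held it, with the element in capitals. The limits of level and chromosome given for the CHR windows applied here too.
GINS2 (chr16:85688967-85688996, - strand): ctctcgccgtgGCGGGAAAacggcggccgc
GINS3 (chr16:58392455-58392484, + strand): cgtccccgggcGCGGGAAAcgagtttcaat
MCM3 (chr6:52284898-52284927, - strand): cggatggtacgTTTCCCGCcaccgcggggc
RFC3 (chr13:33818083-33818112, + strand): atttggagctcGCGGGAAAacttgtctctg
LIG1 (chr19:48170440-48170469, - strand): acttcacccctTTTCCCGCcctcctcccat
TYMS (chr18:657603-657632, + strand): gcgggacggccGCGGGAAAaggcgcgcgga
In GINS2, GINS3, RFC3 and TYMS it reads on the opposite strand, as GCGGGAAA. It was found in 8 of the 37 replication genes with a promoter in the table (21.6%), in 5.45% of the mitotic genes, in 2.54% of the genes tested and in 1.99% of all promoters of protein-coding genes. The CHR was in 5.41% of the replication promoters.

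DNA repair and checkpoint genes followed replication. Of 40 genes 38 fell (median -0.93), and the exceptions were XRCC4, an end-joining factor that rose from 8.26 ± 2.16 to 14.4 ± 1.499 CPM, and LIG4, its ligase partner, which was not called (log2 change 0.20, named after its value was seen). RAD54L, a motor of homologous recombination, stood at 11.7, 12.6 and 12.7 CPM in the young and 2.90, 2.89 and 3.34 CPM in the old libraries (log2 change -2.02, SE 0.16). POLQ, the polymerase of theta-mediated end joining, fell by 1.97 on the log2 scale, and FANCD2 of the Fanconi pathway from 17.5 ± 2.29 to 4.72 ± 0.653 CPM. The Ku proteins XRCC5 and XRCC6 and the kinase subunit PRKDC, which act in end joining in resting cells too, fell by 0.66, 0.56 and 0.88 on the log2 scale.

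Chromatin genes with known loss in senescence were lower. LMNB1 (lamin B1), which lines the inner nuclear membrane, was measured at 66.9, 59.2 and 70.0 CPM in the young and 10.2, 7.93 and 9.18 CPM in the old libraries, a 7.24-fold fall (log2 change -2.86, SE 0.11, edgeR adjusted p 1.02e-15). HMGB2, a DNA-bending protein, stood at 114, 103 and 114 CPM in the young and 17.7, 22.2 and 21.0 CPM in the old libraries (log2 change -2.43, SE 0.086) and its paralog HMGB1 at 393, 360.4 and 385 CPM in the young and 144, 150.4 and 138 CPM in the old libraries (log2 change -1.40, SE 0.061). The old libraries lay below the young libraries for all 3 genes. EZH2, the histone H3 lysine 27 methyltransferase of Polycomb, fell from 25.1 ± 1.71 to 7.34 ± 0.646 CPM, whereas EZH1, its paralog of resting cells, rose from 15.4 ± 0.936 to 24.7 ± 0.679 CPM. DNMT1, which maintains DNA methylation, fell 2.18-fold, and CTCF, the insulator protein, 1.82-fold. CBX5 (HP1 alpha) fell by 0.55 on the log2 scale.

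Of 47 HMG, lamin, Polycomb and DNA methylation genes, 38 fell and 4 rose (median -0.67). HMGA1 and HMGA2, architectural proteins of senescence foci, went separate ways. HMGA2 was at 141, 137 and 166 CPM in the young and 352, 339.9 and 357 CPM in the old libraries and rose 2.36-fold (log2 change 1.24, SE 0.072). HMGA1 was at 1285, 1180.3 and 1077 CPM in the young and 1295, 1076 and 1175 CPM in the old libraries and was not called (log2 change 0.0012, SE 0.073). LMNA, which encodes lamins A and C, fell by 0.19 on the log2 scale, a call that was lost in the fit of the compared groups alone and without any of 4 single libraries, and HDAC9, a class IIa deacetylase, rose by 0.53, a call lost under DESeq2, at equal depth and without any of 3 single libraries.

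Polyadenylated mRNA of replication-dependent histones was higher in old cells. Of 26 genes listed, 19 passed the filter on low counts, 18 of these were higher in old cells, and HIST2H2BF was not called (log2 change 0.22, named after its value was seen). Histone mRNA of this class ends in a stem loop and as a rule lacks a poly(A) tail, so that poly(A) libraries hold only its polyadenylated forms, and genes that passed only through high levels in a group had to differ. HIST1H2BK was measured at 13.5, 15.3 and 13.4 CPM in the young and 74.2, 85.6 and 69.3 CPM in the old libraries (log2 change 2.44, SE 0.10), HIST1H1C (linker histone H1.2) at 13.4, 14.0 and 14.2 CPM in the young and 58.5, 65.1 and 68.4 CPM in the old libraries, and HIST1H2AC at 13.9, 16.9 and 18.8 CPM in the young and 64.3, 58.3 and 62.4 CPM in the old libraries. The rises of these 3 genes were 5.41-fold, 4.61-fold and 3.69-fold. HIST2H2AA3 (2.44) and HIST1H2BC (2.55) rose too, but histone genes share near-identical sequence and single members are uncertain. The share of coding reads on the whole list went from 0.00846% ± 3.61e-04 to 0.0349% ± 6.93e-04 (SD, n = 3 each). The ribosome footprint libraries, which were not selected for poly(A), gave the other direction for these genes. HIST1H1C stood there at 739, 802 and 778 CPM in the young and 310.5, 317 and 263 CPM in the old libraries, and HIST1H2AC at 246, 199 and 212 CPM in the young and 101, 50.1 and 78.9 CPM in the old libraries. For HIST1H2BK the footprint means were 51.4 CPM in young and 13.7 CPM in old, for HIST1H2BC 44.5 and 7.92 CPM, and for HIST2H2AA3 131 and 28.6 CPM. Many of these values rest on few footprints, with 3 reads on HIST1H2AC in the shallowest old library, and they carry no test here. The old libraries held 55, 0 and 1 reads on HIST1H2BK, 22, 0 and 4 on HIST1H2BC and 60, 1 and 13 on HIST2H2AA3. On HIST1H2BK the first old library (39.2 CPM) lay close to the second young library (40.7 CPM).

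Targets of p53 were higher on balance. Of 40 targets 25 rose and 5 fell, with a median of 0.48 (32.4% of all genes tested were called higher). PMAIP1 (NOXA), which promotes apoptosis, was measured at 50.01, 44.9 and 57.7 CPM in the young and 128, 143 and 151 CPM in the old libraries (log2 change 1.47, SE 0.09), and RRM2B, the p53-induced subunit of ribonucleotide reductase, at 41.7, 37.5 and 47.6 CPM in the young and 92.5, 97.6 and 100.4 CPM in the old libraries (log2 change 1.198, SE 0.079). Both stood above the young range in each old library. PERP, a membrane protein of desmosomes, rose 2.06-fold. The kinase PLK2 fell from 138 ± 4.70 to 70.2 ± 3.66 CPM and XPC, a damage sensor of excision repair, by 0.29 on the log2 scale. MDM2, the ligase that degrades p53, was not called (log2 change 0.13, named after its value was seen).

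The secretory phenotype at the mRNA level was made of proteases, binding proteins and some cytokines. Of 38 cytokine and chemokine genes only 22 passed the filter, and 10 of these rose and 7 fell (median 0.21). The sign of this median was not stable, as it was -0.0087 with a mean of at least 50 counts, where 10 members were called, and -0.15 with only the groups compared. CXCL8 (interleukin 8), a chemoattractant of neutrophils, was measured at 1.86, 0.872 and 0.953 CPM in the young and 9.999, 13.6 and 27.7 CPM in the old libraries (log2 change 3.86, SE 0.37). The old libraries all lay above the young libraries but differed among themselves. IL6, the cytokine most often used to mark this phenotype, was at 16.4, 16.0 and 17.5 CPM in the young and 6.02, 7.41 and 6.58 CPM in the old libraries and fell (log2 change -1.30, SE 0.15, edgeR adjusted p 6.06e-08). IL11 of the same family rose from 25.5 ± 2.58 to 62.9 ± 8.20 CPM, CCL2 from 33.0 ± 0.699 to 49.8 ± 2.70 CPM, and MIF by 0.47 on the log2 scale. LIF, a further cytokine of the IL6 family, fell from 109 ± 3.50 to 33.6 ± 3.50 CPM and TSLP from 28.9 ± 1.13 to 9.67 ± 1.58 CPM. CSF1 was not called (log2 change -0.16). IL1A, CXCL10 and CCL5 were among those that did not pass the filter. All reads on the list made up 0.0804% ± 0.00162 of coding reads in young and 0.0832% ± 0.00478 in old (exact two-sided permutation p 0.5, where 3 against 3 libraries cannot give less than 0.1).

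**Figure D4:**
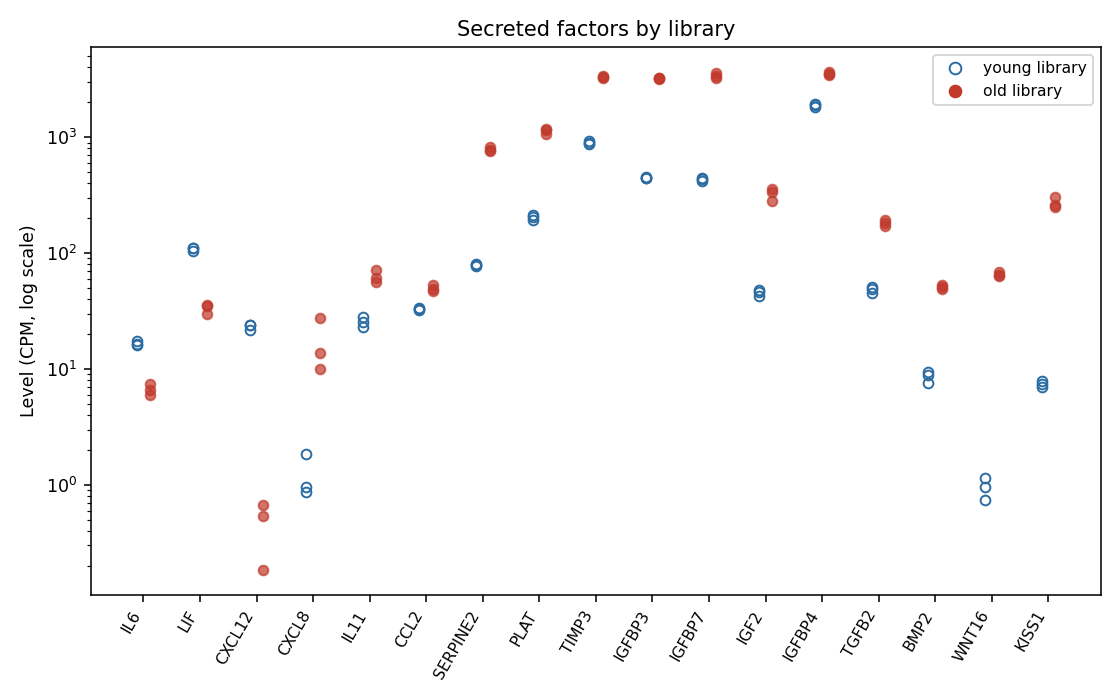
Level (CPM, log scale) of 17 secreted factors in each of the 3 young (open blue) and 3 old (filled red) libraries. IL6, LIF and CXCL12 lie lower in old, and the other 14 factors lie higher, with no overlap between the groups. The 17 factors were picked by hand and leave out secreted factors that fell, such as IGFBP5, MMP2 and TSLP, so that their balance is not that of the lists.

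Subunits and feedback inhibitors of NF-kappaB, the transcription factor that drives many of these cytokines, were mostly lower. Of 28 genes 15 fell and 6 rose (median -0.38). TNFAIP3 (A20), a deubiquitinase induced by the pathway as a brake, was at 11.7, 7.85 and 7.91 CPM in the young and 2.15, 1.93 and 5.28 CPM in the old libraries (log2 change -1.54, SE 0.25). VCAM1, an adhesion molecule induced by the pathway, stood at 149.9, 151 and 149 CPM in the young and 42.4, 57.5 and 53.2 CPM in the old libraries (log2 change -1.55, SE 0.083). Each was below the young range in every old library. TNIP1, an A20 binding protein, rose from 119 ± 10.1 to 264 ± 13.2 CPM, NFKBIZ from 10.7 ± 0.816 to 25.9 ± 2.87 CPM, and RELA, the p65 subunit, by 0.49. SOD2 was not called (log2 change -0.052).

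Secreted proteases and their inhibitors rose in larger numbers. Of 33 tested 21 rose and 6 fell (median 0.34). SERPINE2 (protease nexin 1), an inhibitor of thrombin and plasminogen activators, was measured at 80.5, 79.1 and 77.3 CPM in the young and 759, 824 and 772 CPM in the old libraries, a 9.95-fold rise (log2 change 3.31, SE 0.067, edgeR adjusted p 2.89e-20). PLAT, the tissue plasminogen activator, stood at 193, 207 and 212 CPM in the young and 1173, 1076 and 1144 CPM in the old libraries, and ADAM19, a membrane metalloprotease, at 189.7, 177 and 173 CPM in the young and 1023, 923 and 1036 CPM in the old libraries. These genes rose 5.55-fold and 5.53-fold. TIMP3, an inhibitor of metalloproteases held in the matrix, rose from 893 ± 25.03 to 3292 ± 56.3 CPM. MMP2, gelatinase A, fell from 755 ± 11.1 to 415 ± 13.5 CPM and ADAMTS2, the procollagen N-proteinase, by 0.61 on the log2 scale. TIMP1 fell by 0.23, a call that was lost with CDS reads alone and without the third old library. The list took 1.13% ± 0.0257 of coding reads in young and 1.76% ± 0.0162 in old cells.

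Binding proteins of insulin-like growth factors were among the abundant genes that moved most. Of 19 genes of the IGF axis 12 rose and 6 fell (median 0.46). IGFBP7, which binds IGFs weakly and is a known senescence factor, was at 416, 440.4 and 435 CPM in the young and 3385, 3579 and 3249 CPM in the old libraries (log2 change 2.98, SE 0.069). IGFBP3, the main carrier of IGFs in serum, was at 441, 449.6 and 445 CPM in the young and 3211, 3237 and 3163 CPM in the old libraries (log2 change 2.85, SE 0.066), and the ligand IGF2 at 42.3, 47.8 and 46.2 CPM in the young and 339, 281 and 354 CPM in the old libraries (log2 change 2.83, SE 0.085). All 3 genes rose at least 7.12-fold. The antisense symbol IGFBP7-AS1 stood at 28.9 ± 4.06 CPM in young and 278 ± 32.0 CPM in old cells, and since the strand of counting was not stated its reads and those of IGFBP7 cannot be told apart. IGFBP4 rose from 1882 ± 47.3 to 3518 ± 104 CPM. IGFBP5 fell from 16867 ± 938 to 11449 ± 882 CPM, IGF2BP2, an RNA binding protein of IGF2 mRNA, by 0.65 and INSR, the insulin receptor, by 0.52 on the log2 scale. With a fall in IGFBP5 and rises elsewhere, the list held 2.18% ± 0.0955 of coding reads in young and 2.29% ± 0.0787 in old.

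Growth factors changed ligand by ligand. Of 34 ligands and receptors 19 rose and 9 fell (median 0.33). PDGFB, a ligand of both PDGF receptors, was measured at 0.496, 0 and 0.0953 CPM in the young and 8.82, 9.93 and 10.8 CPM in the old libraries. NRG1 (neuregulin), a ligand of ERBB receptors, stood at 10.5, 13.3 and 10.9 CPM in the young and 75.7, 73.1 and 86.6 CPM in the old libraries (log2 change 2.74, SE 0.12), and ANGPTL4 rose from 90.3 ± 1.54 to 327 ± 2.92 CPM. PDGFD fell from 23.9 ± 3.09 to 5.49 ± 1.03 CPM. The PDGF family thus had members that rose and that fell, and PDGFA fell by 0.67 on the log2 scale, a call lost with CDS reads alone. The receptors PDGFRA and FGFR1 were not called, with log2 changes of 0.03 and -0.075, PDGFRB fell by 0.36, and AXL, the receptor of GAS6, fell from 685 ± 2.79 to 459 ± 16.7 CPM while GAS6 rose from 1179.8 ± 20.6 to 2647 ± 133 CPM.

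WNT genes gave 17 rises and 10 falls in 32 genes tested (median 0.34). Beside WNT16, the noncanonical ligand WNT5B rose from 74.1 ± 3.06 to 251 ± 20.2 CPM, and WNT5A went from 369.5 ± 30.7 to 767 ± 37.1 CPM. WNT2, a canonical ligand of lung mesenchyme, was at 45.4, 45.5 and 36.9 CPM in the young and 6.13, 6.97 and 5.19 CPM in the old libraries (log2 change -2.79, SE 0.12). ROR2, a receptor of WNT5A, fell from 35.6 ± 2.81 to 7.38 ± 1.11 CPM and APCDD1, an inhibitor and target of the canonical pathway, by 1.62 on the log2 scale. WNT5A and its receptor ROR2 changed in opposite directions. The receptor FZD8 rose by 1.66, and the secreted modulators DKK3 and SFRP1 rose by 1.55 and 0.79.

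TGF-beta, activin and BMP genes also changed in both directions, with 24 of 45 higher and 15 lower (median 0.20). TGFBR2, the type II receptor of TGF-beta, was measured at 190.1, 192 and 189 CPM in the young and 946, 946 and 926 CPM in the old libraries (log2 change 2.30, SE 0.06), and the ligand TGFB2 at 45.5, 48.9 and 50.7 CPM in the young and 172, 183 and 194 CPM in the old libraries (log2 change 1.92, SE 0.069). Ligand and receptor rose 3.78-fold and 4.94-fold. Among BMP ligands GDF6 stood at 9.18, 9.59 and 11.5 CPM in the young and 92.4, 93.6 and 102 CPM in the old libraries and GDF5 at 92.2, 106 and 91.2 CPM in the young and 9.57, 9.34 and 6.30 CPM in the old libraries, a rise of 9.46-fold and a fall of 11.5-fold between close paralogs, and BMP2 rose from 8.58 ± 0.989 to 51.0 ± 2.02 CPM. SMAD1, which carries the BMP signal, fell by 1.37 on the log2 scale, and GREM1, a secreted BMP antagonist, from 1989 ± 55.5 to 1061 ± 24.5 CPM. TGFBI, a matrix protein induced by TGF-beta, rose by 0.37.

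Immediate early genes gave 10 rises and 5 falls in 24 tested (median 0.046). EGR1, a serum response factor target, fell from 93.5 ± 18.7 to 32.6 ± 13.1 CPM and FOSL2 by 0.68 on the log2 scale. MYC fell from 66.2 ± 2.57 to 42.0 ± 4.71 CPM. ATF3 rose from 15.5 ± 0.353 to 35.8 ± 7.93 CPM and the phosphatases of MAP kinases DUSP6 and DUSP1 by 1.35 and 0.86. FOSL1 was not called (log2 change -0.083), and JUN rose by 0.28, a call lost with CDS reads alone and without the third old library.

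The list of YAP and TAZ targets, with TEAD partners among its 28 members, gave 13 rises and 8 falls (median 0.071). ANKRD1, a stretch-responsive ankyrin repeat protein, was at 11.9, 11.4 and 9.44 CPM in the young and 218, 255 and 222 CPM in the old libraries, 21.3-fold higher in old cells (log2 change 4.41, SE 0.093). CCN2 (CTGF) was at 705, 866 and 973 CPM in the young and 2247, 2294 and 2536 CPM in the old libraries (log2 change 1.48, SE 0.088) and F3, tissue factor, rose from 387 ± 11.6 to 1099.6 ± 89.5 CPM. IGFBP3 and TGFB2 above are also on this list. The DNA binding partners TEAD2 and TEAD4 fell by 0.97 and 0.81 on the log2 scale, and YAP1 and CCN1 were not called (log2 changes -0.053 and -0.035, named after their values were seen).

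Interferon-stimulated genes split by gene rather than moving as a block. Of 41 tested 20 rose, 9 fell and 12 were not called (median 0.31). IFI6, an interferon-induced membrane protein, was measured at 14.3, 13.7 and 11.9 CPM in the young and 101, 103 and 131 CPM in the old libraries (log2 change 3.08, SE 0.11). ISG15, a ubiquitin-like modifier, stood at 31.1, 28.2 and 27.7 CPM in the young and 72.0, 66.1 and 65.9 CPM in the old libraries (log2 change 1.23, SE 0.075), and SAMD9L rose from 13.9 ± 0.921 to 48.4 ± 2.595 CPM. OAS3, an oligoadenylate synthetase, fell from 24.4 ± 1.54 to 8.98 ± 1.29 CPM, IFI16, a nuclear DNA sensor, from 88.3 ± 5.58 to 33.8 ± 3.20 CPM, and IFI35 by 1.23 on the log2 scale. The interferon element (letters GAAANNGAA, both strands) was in 24 of 34 promoters on the list (70.6%), against 6.50% of the genes tested and 7.09% of all promoters of protein-coding genes.

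Genes of MHC class I presentation were mostly higher. Of 21 tested 12 rose and 4 fell (median 0.25). HLA-E was at 182, 177 and 184 CPM in the young and 399, 406 and 417 CPM in the old libraries (log2 change 1.17, SE 0.061), and the stress ligands of the natural killer receptor NKG2D were higher, with MICA at 40.3, 36.1 and 36.6 CPM in the young and 108, 101 and 98.3 CPM in the old libraries and ULBP2 at 6.58, 5.23 and 5.62 CPM in the young and 24.6, 29.2 and 24.8 CPM in the old libraries. Both ligands lay above the young range in every old library. B2M, the light chain, rose from 934 ± 69.1 to 1185 ± 172 CPM. HLA genes share sequence, so that single members are uncertain. The immunoproteasome subunit PSMB9 fell from 16.5 ± 2.86 to 5.88 ± 0.639 CPM, PSMB8 by 0.61 and the transactivator NLRC5 by 0.50 on the log2 scale.

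Complement genes had 5 rises and 6 falls in 18 tested (median 0.064). These shares (27.8% and 33.3%) were near those of all genes tested (32.4% and 33.7%), so that the list as a whole did not stand out. C1R and C1S, proteases of the classical pathway, fell, with C1R at 273, 286 and 274 CPM in the young and 84.2, 82.2 and 90.6 CPM in the old libraries and C1S from 284 ± 7.36 to 243 ± 5.38 CPM. CD46 and CD59, membrane proteins that protect host cells from complement, rose, with CD46 at 101, 95.0 and 104 CPM in the young and 246, 272 and 252 CPM in the old libraries and CD59 at 763, 701 and 697 CPM in the young and 1606, 1730.2 and 1458 CPM in the old libraries. Log2 changes were 1.36 for CD46, 1.15 for CD59 and -1.70 for C1R. C7 of the membrane attack complex rose from 5.06 ± 1.12 to 26.1 ± 0.390 CPM, and CFB fell by 1.92 on the log2 scale.

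Collagen genes were divided. Of 41 collagens and collagen-modifying enzymes 20 rose and 14 fell (median 0.10), and the list took 4.43% ± 0.347 of coding reads in young and 4.11% ± 0.303 in old (exact two-sided permutation p 0.4). COL1A1 and COL1A2 were not called, while COL3A1 fell from 2081 ± 170.5 to 1082 ± 83.2 CPM and COL6A1 by 0.60 on the log2 scale. COL15A1, a collagen of basement membrane zones, was at 194, 218 and 198 CPM in the young and 34.9, 29.1 and 26.5 CPM in the old libraries (log2 change -2.76, SE 0.087), and COL14A1 and the enhancer PCOLCE fell by 2.97 and 2.31 on the log2 scale. COL11A1 rose from 8.75 ± 1.06 to 27.0 ± 3.51 CPM. The collagen hydroxylases P3H2 and PLOD2 rose, with P3H2 at 166, 155 and 155 CPM in the young and 626, 649 and 585 CPM in the old libraries and PLOD2 at 319, 329 and 389 CPM in the young and 1099, 1263 and 1157 CPM in the old libraries, rises of 3.91-fold and 3.39-fold.

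Other matrix genes were divided as well, with 18 rises and 20 falls in 47 elastic fibre, basement membrane and matricellular genes (median 0.04). ELN (elastin) was at 18.6, 15.5 and 13.6 CPM in the young and 0.538, 0.964 and 1.95 CPM in the old libraries (log2 change -3.75, SE 0.22) and FBLN2 (fibulin 2) fell from 31.2 ± 2.62 to 9.19 ± 0.739 CPM. SPARC, a collagen-binding matricellular protein, rose from 3633 ± 63.1 to 6753 ± 350.4 CPM, THBS1 (thrombospondin 1) from 945 ± 100.02 to 2594 ± 195 CPM and ECM1 from 91.2 ± 1.23 to 275 ± 11.4 CPM. Large changes at the ends of the list, POSTN down and MXRA5 and MFAP5 up, are given above. FN1 (fibronectin) rose by 0.25, but this call was lost under 7 alternatives, among them CDS reads alone and DESeq2.

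Integrins and focal adhesion genes were higher in 21 and lower in 7 of 31 (median 0.39). ITGB1, the common beta subunit, rose from 3022 ± 175 to 4302 ± 182 CPM, ITGB5 of the vitronectin receptor was at 188, 186 and 186 CPM in the young and 716, 675 and 651 CPM in the old libraries, and ITGA6, a laminin receptor subunit, rose 2.84-fold. ITGB8, which activates latent TGF-beta, was at 27.2, 28.3 and 30.03 CPM in the young and 2.80, 2.82 and 2.97 CPM in the old libraries (log2 change -3.32, SE 0.12). ITGB5 and ITGB8, which both pair with ITGAV, thus changed in opposite directions.

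Contractile genes changed in both directions. Of 36 actin and contractile genes 19 rose and 9 fell (median 0.15). TPM1 (tropomyosin 1) went from 1118 ± 34.2 to 2012 ± 70.5 CPM, CALD1 (caldesmon) from 673 ± 9.94 to 1625 ± 101 CPM, and MYOCD, the coactivator of smooth muscle genes, from 25.9 ± 1.45 to 57.6 ± 5.17 CPM. ACTB was not called (log2 change -0.034), while ACTG1 fell by 0.34, MYH9 by 0.41 and MYH10, the nonmuscle myosin IIB heavy chain, by 1.601 on the log2 scale. Actin genes share sequence. All 8 markers of smooth muscle and pericytes passed the filter, and their sum was 1150 to 1264 CPM in young and 1649 to 1688 CPM in old cells, with ACTG2 at 739 ± 45.6 and 1114 ± 18.6 CPM, RGS5 at 3.31 ± 0.212 and 10.9 ± 0.348 CPM, and MYH11, the smooth muscle myosin heavy chain, which fell (31.6 ± 1.17 and 18.4 ± 2.13 CPM). The part of such cells in the contractile changes was not tested.

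Amino acid synthesis and transport under ATF4, the transcription factor of the integrated stress response, was lower throughout. Of 30 genes 27 fell and none rose (median -0.71). PHGDH, the entry enzyme of serine synthesis, was measured at 261, 271 and 274 CPM in the young and 55.6, 58.1 and 51.9 CPM in the old libraries, a 4.85-fold fall (log2 change -2.28, SE 0.082, edgeR adjusted p 3.99e-16). ASNS (asparagine synthetase) stood at 99.4, 105 and 104 CPM in the young and 22.7, 27.4 and 21.6 CPM in the old libraries (log2 change -2.09, SE 0.10), and the readthrough symbol CZ1P-ASNS, which shares its reads, at 81.0 ± 2.31 and 20.4 ± 2.67 CPM. DDIT4 (REDD1), an inhibitor of mTORC1, fell from 125 ± 9.95 to 38.7 ± 5.99 CPM. All old libraries lay below all young libraries for these genes. ATF4 fell from 517 ± 53.6 to 351 ± 15.2 CPM, the leucine transporter SLC7A5 from 664 ± 17.98 to 391 ± 16.9 CPM and the glutamine transporter SLC38A2 by 0.27 on the log2 scale.

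Glycolytic genes were higher. Of 25 genes 19 rose and 4 fell (median 0.45). SLC2A1 (GLUT1), the basal glucose transporter, was at 182, 200.4 and 202 CPM in the young and 689, 684 and 754 CPM in the old libraries (log2 change 1.86, SE 0.066), and the lactate exporter SLC16A3 (MCT4) at 399, 416 and 458 CPM in the young and 1081, 994 and 1189.9 CPM in the old libraries (log2 change 1.36, SE 0.073). GAPDH rose from 5313 ± 158 to 7029 ± 605 CPM, PKM by 0.30 and PDK4, which restrains pyruvate entry into mitochondria, from 10.1 ± 0.650 to 30.4 ± 9.22 CPM. LDHB, the lactate dehydrogenase subunit of oxidative tissue, fell from 559 ± 8.85 to 251 ± 26.3 CPM, and ENO1 and SLC16A1 by 0.32 and 0.36 on the log2 scale.

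The nuclear-encoded respiratory chain moved little. Of 60 subunits 41 were not called, 11 rose and 8 fell, with changes from -0.38 to 0.59 and a median of 0.051. NDUFA2 of complex I rose from 31.5 ± 0.566 to 47.3 ± 1.497 CPM and SDHA of complex II fell from 58.0 ± 4.96 to 44.8 ± 2.70 CPM. ATP5F1B, the catalytic subunit of ATP synthase, was not called (log2 change 0.066), and ATP5F1A fell by 0.27.

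Targets of NRF2, the transcription factor of the antioxidant response, were lower in 21 and higher in 6 of 35 (median -0.41). NQO1, a quinone reductase, was at 358, 328 and 358 CPM in the young and 94.0, 105 and 94.3 CPM in the old libraries (log2 change -1.83, SE 0.068). GPX4, which detoxifies lipid peroxides, fell from 390.4 ± 29.5 to 182 ± 10.7 CPM, TXNRD1 by 0.61, and the ferritin chains FTH1 and FTL by 0.41 and 0.30 on the log2 scale. The glutathione peroxidases GPX1 and GPX3 rose, by 0.40 and 1.16, and GCLC, which limits glutathione synthesis, by 0.43.

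Cholesterol synthesis genes, which SREBP2 controls, rose by small amounts in most members. Of 34 genes of cholesterol and fatty acid synthesis 25 rose and 6 fell (median 0.34). MSMO1 went from 52.3 ± 9.20 to 96.5 ± 8.92 CPM, DHCR7, a late enzyme of the pathway, from 61.8 ± 1.77 to 113 ± 8.37 CPM, and IDI1 from 43.3 ± 1.86 to 79.0 ± 1.64 CPM. SCD, the stearoyl-CoA desaturase, fell from 276 ± 13.8 to 189 ± 2.47 CPM. FASN, the fatty acid synthase, fell by 0.41 on the log2 scale, a call lost under DESeq2 and without either of 2 single libraries. The further falls on the list were ACACA (-0.36), ELOVL6 (-0.19) and FADS2 (-0.27), which also act in fatty acid synthesis, and INSIG1 (-0.38), which retains SREBPs in the endoplasmic reticulum and whose call was lost with CDS reads alone. ACACA, ELOVL6 and FADS2 were named after their values were seen.

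Lysosomal genes rose together. Of 50 genes 41 rose and 4 fell (median 0.53, from -1.48 to 1.72). The list's share of coding reads was 0.680, 0.682 and 0.677% in the young and 0.918, 0.935 and 0.908% in the old libraries. GLB1, the lysosomal beta-galactosidase whose activity is stained as a marker of senescence, was at 66.6, 66.4 and 66.2 CPM in the young and 119, 113 and 105 CPM in the old libraries (log2 change 0.76, SE 0.067, named after its values were seen). IDUA, which degrades glycosaminoglycans, rose 2.44-fold, the calcium channel MCOLN1 from 15.5 ± 0.336 to 37.0 ± 3.03 CPM, and FUCA1 by 1.72 from a low level. CTSB (cathepsin B) and CD63 rose from 1269 ± 8.64 to 1629.8 ± 20.2 CPM and from 879 ± 26.3 to 1359 ± 145 CPM. The protease CTSH and the thioesterase PPT1 fell, by 1.48 and 0.82 on the log2 scale.

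Other parts of protein turnover changed less. Autophagy genes rose in 19 and fell in 3 of 35 (median 0.21), with MAP1LC3B (LC3B) at 146, 147 and 149 CPM in the young and 295, 331 and 311 CPM in the old libraries and WIPI1 up 2.52-fold, while the receptor SQSTM1 (p62) was not called (log2 change -0.13). Of 36 proteasome genes 20 were not called, 3 rose and 13 fell (median -0.07), and the rises were PSMD2, PSME4 and PSMB5 (0.50, 0.48 and 0.28). Genes of folding in the endoplasmic reticulum rose in 16 and fell in 1 of 32 (median 0.18). DNAJB9, a cochaperone of BiP, went from 19.2 ± 2.35 to 47.5 ± 2.29 CPM and P4HB, protein disulfide isomerase, from 1371 ± 44.9 to 2170.1 ± 65.8 CPM, whereas HSPA5, BiP itself, was not called (log2 change -0.10, named after its value was seen).

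Chaperones of the cytosol and mitochondria were lower in 20 and higher in 9 of 35 (median -0.23). The mitochondrial chaperonin HSPD1 fell from 405 ± 6.08 to 221 ± 15.2 CPM, CCT5 of the cytosolic chaperonin by 0.58 and HSP90AB1 by 0.40 on the log2 scale. The small heat shock proteins HSPB8 and CRYAB rose, from 27.6 ± 1.32 to 47.4 ± 4.60 CPM and from 3.45 ± 0.273 to 7.42 ± 1.38 CPM.

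Genes of ribosomes and of their assembly were lower. Of 78 cytosolic ribosomal protein genes 76 fell and none rose (median -0.55). Their share of coding reads was 6.34, 6.11 and 5.74% in the young and 3.88, 4.12 and 3.33% in the old libraries, and no old library reached the young range. RPL3 was at 1968, 1865 and 1732 CPM in the young and 1000.4, 1005 and 877 CPM in the old libraries (log2 change -0.95, SE 0.068), RPL12 fell by 0.93 and RPS2 from 2591 ± 82.0 to 1513 ± 38.4 CPM. Genes of nucleolar ribosome biogenesis fell in 50 and rose in 2 of 56 (median -0.55). FBL (fibrillarin), the methyltransferase of ribosomal RNA, was at 112, 114 and 122 CPM in the young and 41.7, 42.9 and 36.6 CPM in the old libraries (log2 change -1.52, SE 0.071), NOLC1 fell from 119 ± 3.98 to 56.3 ± 2.16 CPM and NPM1 (nucleophosmin) from 716 ± 35.0 to 384 ± 30.2 CPM. The exceptions were NOP10 and RRP12, which rose by 0.41 and 0.32.

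Mitochondrial ribosomal proteins fell in 28 and rose in 7 of 59, with 24 not called (median -0.18). MRPL3 went from 112 ± 6.78 to 61.9 ± 5.93 CPM, and MRPL36 rose by 0.46. Splicing factors of the SR and hnRNP families fell in 33 of 36 and none rose (median -0.77). HNRNPA1 was measured at 215, 210.5 and 221 CPM in the young and 72.4, 78.1 and 71.4 CPM in the old libraries (log2 change -1.54, SE 0.061) and HNRNPD, which controls mRNA decay through AU-rich elements, at 233, 221 and 265 CPM in the young and 80.4, 79.6 and 91.9 CPM in the old libraries (log2 change -1.51, SE 0.074). Every old library lay below every young library for both. HNRNPA2B1 and HNRNPK fell from 732 ± 48.5 to 336 ± 25.3 CPM and from 573 ± 26.1 to 401 ± 13.9 CPM.

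Summed over members, the shares of coding reads showed how much mRNA each list accounted for. Mitotic genes went from 0.338% ± 0.00477 of coding reads in young to 0.1005% ± 0.00601 in old cells (0.298 times the young share), replication genes from 0.195% ± 0.00590 to 0.0869% ± 0.00309 (0.446 times) and splicing factors from 0.773% ± 0.0334 to 0.421% ± 0.00985 (0.544 times). Ribosomal proteins lost most reads in absolute terms among these, from 6.06% ± 0.308 to 3.78% ± 0.404. The share of p53 targets rose from 0.463% ± 0.0105 to 0.779% ± 0.00805 and that of the YAP and TAZ list from 0.605% ± 0.0346 to 1.14% ± 0.0366. A summed share is weighted to abundant genes, and the YAP and TAZ list had a median change of only 0.071, with 13 rises and 8 falls. Its abundant members IGFBP3 (445 to 3204 CPM), CCN2 (848 to 2359 CPM) and F3 (387 to 1099.6 CPM) were among the rises. In each of these lists the libraries of the groups did not overlap, for which the exact two-sided permutation test gave p 0.1, the smallest that 3 against 3 libraries can give.

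**Figure D5:**
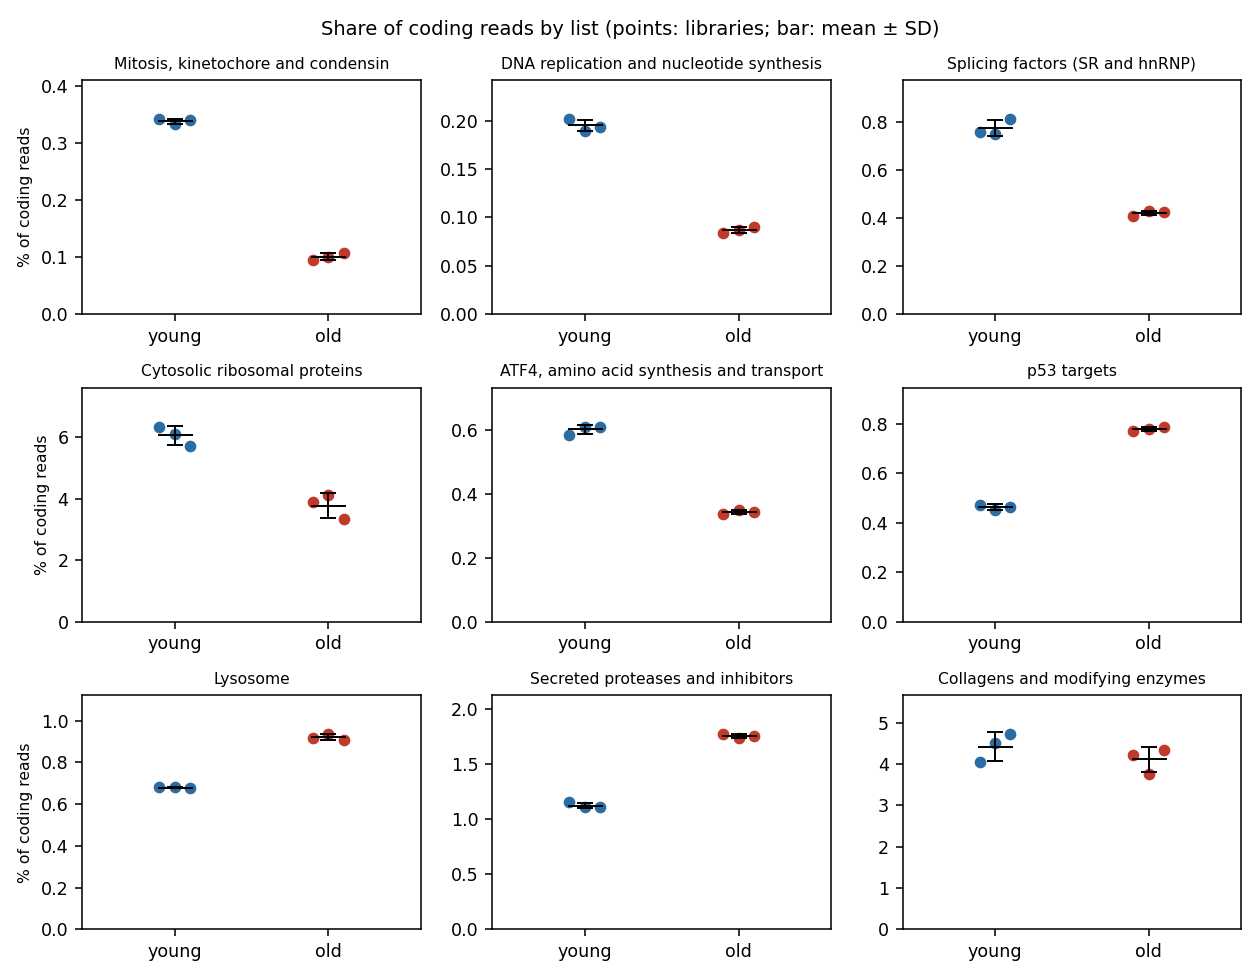
Share of all coding reads (%, vertical) that fell on 9 gene lists in each young (blue) and old (red) library, with mean ± SD (n = 3). Mitotic genes and ribosomal proteins lie lower in every old library, p53 targets, lysosome and secreted proteases lie higher, and the collagen libraries overlap.

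The ICM libraries were set beside the old libraries, which enter both comparisons, to give the levels of the same genes in low-passage cells under the drug. Between ICM and old cells 8338 of 13173 genes were called (63.3%). The shares of all genes called higher and lower were not counted, so that the counts by direction below have no background. Mitotic genes were lower still in ICM (62 of 63 called below old, median -2.74), as were replication genes (39 of 42, median -1.21). MKI67 was at 0.789 ± 0.293 CPM in ICM cells, against 30.9 ± 2.10 CPM in old. NRF2 targets, of which 21 were lower in old than in young cells, were higher in ICM than in old in 33 of 35 (median 2.09). KISS1 stood at 0.746 ± 0.189 CPM and ANKRD1 at 2.72 ± 0.325 CPM in ICM cells. Of the 28 members of the YAP and TAZ list 18 were called, near the share of all genes. All 18 were lower in ICM than in old. HMGA2 was at 21.4 ± 1.92 CPM in ICM and at 349.5 ± 8.66 CPM in old cells (log2 difference, ICM minus old, -4.03, SE 0.086). IL6 was at 10.9 ± 2.66 CPM and CXCL8 at 17.2 ± 0.949 CPM in ICM cells.

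Outside coding genes, 1654 non-coding symbols were tested in the same way on the scaling of the coding genes, and 39.7% were called, 24.3% higher and 15.4% lower in old cells.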

How the data were processed

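The authors deposited, for each library, a table of estimated counts per gene symbol, divided into 5′ UTR, CDS, 3′ UTR and non-coding classes and not scaled to depth. The submitters' processing notes name STAR 2.6.0c, featureCounts, DESeq2 and deepTools with build GRCh37, but which tool and annotation made the mRNA tables, and whether counting used strand, is not given in the sources used here. The 3 coding classes were summed per gene and rounded. edgeR 4.0.16 (R 4.3.3) was fitted to the 9 mRNA-seq libraries with TMM scaling, filterByExpr and a quasi-likelihood test of old against young, with Benjamini-Hochberg adjustment over all genes tested. DESeq2 1.42.0 was an alternative. The fit was also run on simulated counts in which few genes changed, so that a case where most genes move was not tested. SE was the log2 change divided by the root of the F statistic. Of the ribosome footprint tables only the values of named histone genes are given, untested, as CDS footprints in CPM with TMM factors of their own. Replicas were described as independent, and the p-values set each difference against the spread between replicas, estimated over the 9 libraries. The study's methods name single IMR90 isolates, so that these tests do not cover variation between donors.

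Named genes were the 12 largest rises and 12 largest falls among genes called, averaging 5 CPM or more and not overlapping between groups, the 3 members of each list with the largest rise, the largest fall and the highest mean, the kinase inhibitors and cell markers, and the senescence markers named by the study. Some genes that meet this rule are not reported here. The members and lists were chosen with earlier results of these data known. Promoters were those of RefSeq in GRCh38.p14. The depth of 7902427 to 14144455 coding reads left out genes of very low level, and floors cover counting error only.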

Additional observations from a re-analysis of the deposited data

Results flagged for a closer look

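Symbols that lay outside the coding classes held signal that the comparisons of coding genes did not use. Of those tested on the scaling of the coding genes, the 5 with the largest rise at a mean of at least 5 CPM were read off. IGFBP7-AS1, named as antisense to IGFBP7, stood at 24.6, 29.6 and 32.6 CPM in the young and 278, 246 and 310.4 CPM in the old libraries, a mean of 278 CPM in old, and its reads cannot be told apart from those of IGFBP7. The uncharacterised symbol LOC105374003 had a mean of 14.3 CPM in old and 1.13 CPM in young cells, LOC105377378 of 39.1 and 7.10 CPM, LOC105374985 of 9.65 and 1.80 CPM, and LINC00452 of 13.2 and 2.30 CPM. All 3 old libraries lay above the 3 young libraries for each of them. Among symbols that fell, LINC01133 went from 10.4 ± 1.97 to 1.01 ± 0.0847 CPM and the snoRNA host gene SNHG3 from 43.2 ± 3.77 to 11.96 ± 1.97 CPM, while PCOLCE-AS1 (9.99 ± 0.595 to 1.69 ± 0.662 CPM) is named as antisense to PCOLCE, which fell too.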

How the results depend on the processing

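The number of genes called between old and young cells (8709) lay between 7539, with a mean of at least 50 counts, and 9099, with no filter on low counts, over 8 alternatives to the fit, and between 8058 and 8509 when 1 library was left out. DESeq2 called 8019 genes, 8012 of them shared, and CDS reads alone called 7601, of which 7357 were shared and 7339 had the same sign. Higher genes made up 49.0% of the calls and between 48.9% and 49.95% under the alternatives. With the replicate number as a block, edgeR called 8791 genes, 8669 of them shared, and no count of list members moved by over 1.5 times. Deviations of same-numbered young and old libraries correlated at 0.011, -0.055 and 0.078. Those of differently numbered libraries lay between -0.105 and 0.097. With 3 libraries per group these values cannot decide whether the numbers pair the samples. Among list counts, the cytokines and chemokines fell from 17 to 10 called members with a mean of at least 50 counts, which leaves fewer genes to test. The median of the cytokine list (0.21) turned to -0.0087 under that filter and to -0.15 with only the groups compared, and that of the kinase inhibitors (-0.17) to 0.60 under the filter, which drops members of low level. With CDS reads alone the ratio of read shares, old to young, was 1.63 for p53 targets (1.68 with all coding reads), 1.42 for lysosome (1.35) and 1.44 for secreted proteases (1.56), and the cause was not tested. Of 306 named genes called, 13 lost the call under at least 1 alternative and none changed direction.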

Other observations

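Families of genes with a shared symbol, which were picked after their values were seen, included several that no list above held. The pregnancy-specific glycoproteins, secreted members of the carcinoembryonic antigen family best known from the placenta, were higher in old cells in 10 of 10 genes tested (median log2 change 2.604). PSG4 was measured at 14.5, 16.3 and 15.0 CPM in the young and 80.0, 89.3 and 81.3 CPM in the old libraries (log2 change 2.45, SE 0.081). The old libraries were all above the young libraries, but these genes lie side by side with near-identical sequence, so that single members are uncertain. Clustered protocadherins, cell surface proteins of neurons, rose in 9 of 10 genes of the beta cluster (median 1.37), while the gamma A genes tested gave 1 rise and 5 falls of 11 (median -0.49). Nucleoporins (NUP symbols) fell in 19 of 19 (median -0.60). Zinc finger genes with ZNF symbols gave 171 falls and 34 rises of 463 (median -0.26). Their falls were near the share of all genes tested called lower (33.7%), and their rises were below the share called higher (32.4%). TSPAN tetraspanins gave 11 rises and 3 falls of 16 (median 0.95).

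Single HOX genes, which record position along the body axis, and claudins were also picked after their values were seen. HOXA5, which is needed for lung development, was at 25.1, 25.5 and 21.5 CPM in the young and 5.05, 4.08 and 5.38 CPM in the old libraries (log2 change -2.33, SE 0.15), and HOXA7 and HOXA3 fell from 6.23 ± 0.663 to 0.540 ± 0.210 CPM and from 10.8 ± 1.66 to 2.89 ± 0.398 CPM. Every old library lay below every young library for HOXA5. In the HOXB cluster, HOXB8 was at 1.86, 3.31 and 1.91 CPM in the young and 11.0, 12.2 and 11.8 CPM in the old libraries (log2 change 2.26, SE 0.18), HOXB5 and HOXB2 rose by 0.77 and 0.69, and HOXB4 fell by 0.88 on the log2 scale. Among claudins, the strand proteins of tight junctions, CLDN11 was at 846, 886 and 915 CPM in the young and 135, 142 and 141 CPM in the old libraries and CLDN1 at 22.3, 22.2 and 25.1 CPM in the young and 269, 305 and 293 CPM in the old libraries. CLDN11 fell 6.34-fold and CLDN1 rose 12.4-fold.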
